A study of Homo sapiens with 4 samples.

Results

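The genes that license replication origins and build the DNA replication fork were examined in untreated and TGF-β1-treated epithelial cells of a colon cancer line. The group holds 44 genes, from the origin recognition complex to the chromatin factors that follow the fork. They were chosen by name, with earlier results of these data known. All 44 were measured among the 19775 named genes of the array. Each gene was read by its brightest probe set, the set of short array probes that reads a transcript, and 22 of the genes had further probe sets that served as a check. LSTGFBR2 cells are a colon cancer line that carries TGFBR2, the type II TGF-β receptor gene, in a doxycycline-inducible construct. The untreated group was 2 arrays of these cells, and the TGF-β1 group was 2 arrays of the same cells given 5 ng/ml recombinant human TGF-β1 for 16 hours. Per the labels' protocols doxycycline was present from seeding, while the design text speaks of cells with or without it, so the doxycycline state of each array was not taken as known. Values are RMA values on the log2 scale, and differences are TGF-β1 minus untreated.

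Eukaryotic cells prepare to copy their DNA by loading the MCM helicase onto origins marked by the origin recognition complex, a step called licensing that needs CDC6 and CDT1. In S phase, kinases turn the loaded helicase on with CDC45 and the GINS complex, and polymerases, the sliding clamp and its loader extend the new strands. Transcription of many of these genes follows the cell cycle under E2F factors, and TGF-β1 is known to restrain the growth of many epithelial cells.

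TGFBR2 differed between the groups, which bears on every comparison that follows. Its brighter probe set read 9.44 and 9.55 in the untreated and 14.70 and 14.92 in the TGF-β1 arrays, and its other probe set had a log2 difference of 0.03 ± 0.148 (SE, n = 2 per group). The brighter probe set was thus 39.9-fold higher in the TGF-β1 arrays (limma adjusted p = 0.000114). The groups differ in this receptor signal and in the ligand, and they may also differ in doxycycline, whose state in each array is not known. The effects of receptor, ligand and doxycycline cannot be told apart, so a fall below is a difference between the groups and not an effect of TGF-β1 alone. The 8 epithelial markers had mean levels of 7.75 to 15.05. Among them CDX2, an intestinal transcription factor gene, fell (-0.73 ± 0.114 SE, limma adjusted p = 0.0327), and CDH1, the E-cadherin gene, read 0.56 without passing (limma adjusted p = 0.108). KRT20 read -0.60 ± 0.594 without passing (limma adjusted p = 0.730), at 8.78 and 7.30 untreated and 8.16 and 6.74 treated. The rest read from -0.04 to 0.11. The part of these markers in the results that follow was not tested. Of 13 measured markers of fibroblasts, leukocytes and endothelial cells 0 were called by limma. The fibroblast genes COL3A1, at 9.18 and 7.48 untreated and 7.38 and 5.83 treated, and LUM, with all arrays under 4, had an unadjusted p under 0.05, both lower.

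Replication genes were lower in the TGF-β1 arrays across nearly the whole set, and each by a small amount. Of the 44 genes, 14 fell and 0 rose at a limma adjusted p under 0.05, where 1.47% of all genes fell and 1.87% rose. These 14 were ORC1, ORC5, CDC6, CDT1, MCM2, MCM10, GINS2, GINS3, PRIM1, POLE2, PCNA, RFC4, CHAF1A and UHRF1, and they were 1.48-fold to 1.84-fold lower. Both TGF-β1 arrays lay below both untreated arrays for 39 of the 44 genes, against 23.0% of all genes, and above them for 1 gene, ORC2, against 21.4% of all genes. With no adjustment, 34 genes were lower and 0 higher at a limma p under 0.05, where 8.54% of all genes were lower and 8.18% higher. As the members were chosen with earlier results of these data known, the shares over all genes describe the contrast and do not test it.

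The median log2 difference of the 44 genes was -0.44, beside a median of -0.0036 over all genes. In all, 42 genes had a difference below 0, as did 50.9% of all genes. On the ordered list of all differences, 24 of the 44 genes stood in the lowest 5% and 35 in the lowest 10%. All 44 had mean log2 levels of 8.19 to 13.21, and no detection call was available. Among the 11342 genes whose mean log2 reached 7, 2.42% fell, 12.8% were lower at an unadjusted p under 0.05 and 28.1% had both TGF-β1 arrays below both untreated arrays, with a median of -0.0047. No member reached a 2-fold difference by the probe set used. In these bulk samples, fewer cells that express the genes and less RNA per cell cannot be told apart.

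**Figure D1:**
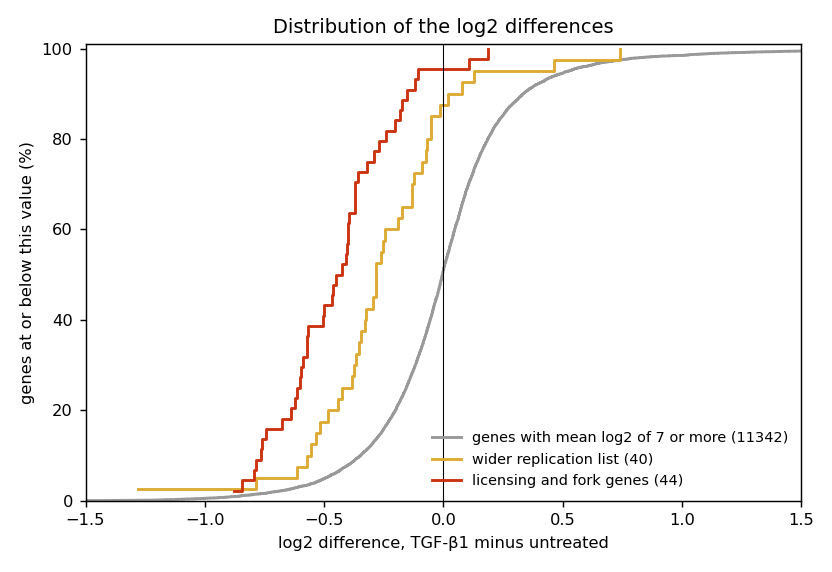
Cumulative share of genes (vertical axis, %) at or below each log2 difference (horizontal axis, TGF-β1 minus untreated) for the 44 licensing and fork genes, the 40 genes of a wider replication list and the 11342 genes whose mean log2 reached 7. The curve of the 44 genes lies to the left, with a median of -0.44, and that of the wider list between it and the others, with a median of -0.28.

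The arrays of a group lay close together for most of these genes. Each gene was set against the mean of its untreated arrays, so the untreated medians mirror each other by construction. Over the 44 genes these were 0.024 and -0.024 for untreated replicates 1 and 2. The medians for TGF-β1 replicates 1 and 2 were -0.48 and -0.43. The gap between replicates of 1 gene had a median of 0.084 in the untreated and 0.121 in the TGF-β1 group. For 39 of the 44 genes the difference between groups was larger than the replicate gap in both groups, a count that was not made over all genes. With only 3 arrays none of the 14 calls held, and the adjusted p of the 14 genes ran from 0.0703 to 0.237 (limma) without untreated replicate 1, untreated replicate 2, TGF-β1 replicate 1 or TGF-β1 replicate 2. The calls over all genes dropped from 660 to between 70 and 104 in those fits, and 40 to 42 of the 44 genes still had differences below 0. When every probe set was tested on its own, 4 of the 14 calls held, those of ORC1, MCM10, PRIM1 and UHRF1. With the replicate number as a block in the fit the same 4 held, though the labels do not say that these numbers pair the arrays.

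**Figure D2:**
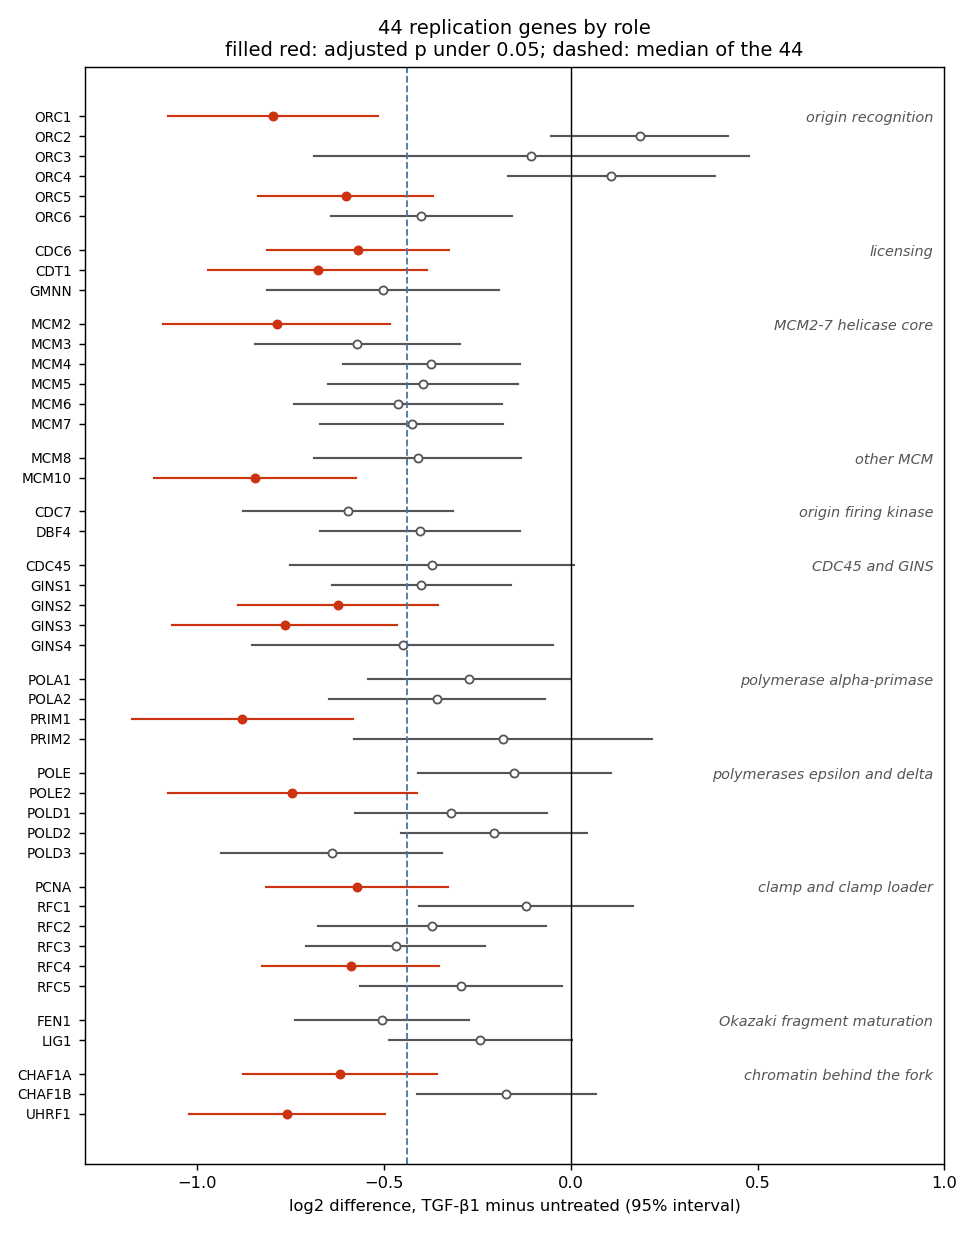
Log2 difference (horizontal axis, TGF-β1 minus untreated) of each of the 44 genes with its 95% interval from limma, grouped by role, with filled red points for the 14 genes at an adjusted p under 0.05 and a dashed line at the median of -0.44. Nearly all points lie left of 0, the exceptions being ORC2 and ORC4.

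Promoters of these genes are shown because so many members moved the same way and because a sequence string linked to E2F factors was common among them. Windows from 250 bases before to 50 bases after the start were taken from RefSeq (GRCh38.p14), at the first start listed for a gene, and 40 of the 44 genes had one (not MCM4, MCM5, GINS4 and POLD3). The E2F-type strings searched were TTTCGCGC and TTTGGCGC on both strands, which can overlap each other on opposite strands. They were present in 11 of 40 member windows (27.5%), beside 322 of 27305 windows of all genes (1.18%). Among windows of the genes tested here 238 of 15384 (1.55%) held one, and among those of the wider replication list 3 of 32 (9.38%). Among the 23769 windows whose GC content lay within the members' range of 38.3% to 78.3%, 1.29% held one. The median GC content was 64.8% for member windows and 58.3% for all windows, so GC content was not matched. CCAAT, the string bound by NF-Y, was present on either strand in 22 of 40 (55.0%), beside 35.7% of all windows. It was in 36.1% of windows of the genes tested and in 56.2% of those of the wider list. All 4 MCM2-7 genes with a window held an E2F-type string, as did CDC6, MCM8, GINS1, POLA1, POLA2, POLE and POLE2.

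The stretches below run from 160 bases before to 30 bases after the start, 5′ to 3′ on the gene's strand, with the E2F-type strings in capitals. They show the 4 MCM2-7 genes, CDC6 and POLE2, which with MCM2 are the genes that fell and hold the string. PRIM1, the gene with the lowest difference, is shown for contrast, as its window holds none of the exact strings searched. Their positions are chr3:127598251-127598440 (+ strand) for MCM2, chr6:52284713-52284902 (- strand) for MCM3, chr2:135876414-135876603 (- strand) for MCM6, chr7:100101368-100101557 (- strand) for MCM7, chr17:40287719-40287908 (+ strand) for CDC6, chr14:49688185-49688374 (- strand) for POLE2 and chr12:56752294-56752483 (- strand) for PRIM1.
MCM2: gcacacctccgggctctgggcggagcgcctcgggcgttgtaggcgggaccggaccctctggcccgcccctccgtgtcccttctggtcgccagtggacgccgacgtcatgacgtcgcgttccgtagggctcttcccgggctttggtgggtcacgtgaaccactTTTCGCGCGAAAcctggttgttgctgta
MCM3: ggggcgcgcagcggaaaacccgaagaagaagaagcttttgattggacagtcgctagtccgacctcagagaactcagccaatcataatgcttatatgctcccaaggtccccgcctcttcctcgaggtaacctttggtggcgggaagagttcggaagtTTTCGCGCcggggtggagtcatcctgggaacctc
MCM6: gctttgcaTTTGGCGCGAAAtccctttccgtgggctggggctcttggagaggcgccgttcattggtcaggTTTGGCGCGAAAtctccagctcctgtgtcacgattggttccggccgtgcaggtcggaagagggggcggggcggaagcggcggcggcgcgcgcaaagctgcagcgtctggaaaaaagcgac
MCM7: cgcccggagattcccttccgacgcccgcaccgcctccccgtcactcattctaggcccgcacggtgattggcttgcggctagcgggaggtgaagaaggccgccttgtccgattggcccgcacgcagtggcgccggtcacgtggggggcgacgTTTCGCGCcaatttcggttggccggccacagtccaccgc
CDC6: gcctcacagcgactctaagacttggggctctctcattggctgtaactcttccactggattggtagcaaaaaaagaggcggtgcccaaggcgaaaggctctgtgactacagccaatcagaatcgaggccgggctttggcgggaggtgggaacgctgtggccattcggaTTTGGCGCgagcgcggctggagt
POLE2: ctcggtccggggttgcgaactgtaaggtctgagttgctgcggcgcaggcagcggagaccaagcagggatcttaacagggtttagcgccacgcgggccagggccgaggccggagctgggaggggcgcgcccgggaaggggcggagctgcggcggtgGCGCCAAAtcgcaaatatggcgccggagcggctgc
PRIM1: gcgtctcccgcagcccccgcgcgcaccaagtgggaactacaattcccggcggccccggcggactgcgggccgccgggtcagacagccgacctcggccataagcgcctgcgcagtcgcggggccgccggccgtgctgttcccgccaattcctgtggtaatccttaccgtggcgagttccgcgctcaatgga

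In MCM2 and at both places in MCM6, strings on opposite strands overlapped to form 1 run of 12 bases. Most of the strings lay near the start, with 9 of 12 runs within 60 bases of it. The 11 genes with a string had a median log2 difference of -0.43, with 3 called, and the 29 without it a median of -0.47, with 11 called. A match is a description of the letters and not a measured binding site. Only the exact strings named above were searched, so a window without them may still hold other sequences that E2F factors bind.

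The origin recognition complex, which marks origins, had values that varied by subunit. ORC1, the subunit whose level is known to follow the cell cycle, fell from untreated values of 9.24 and 9.33 to 8.38 and 8.59 in the TGF-β1 arrays. This was a log2 difference of -0.795 ± 0.115 (SE, n = 2 per group, limma adjusted p = 0.0265). ORC5, a core subunit, fell from 11.02 and 11.03 to 10.44 and 10.41 (difference -0.60 ± 0.096 SE, limma adjusted p = 0.0338). For both genes the groups were apart by several times the gap between replicates. Here and below, groups that did not overlap were part of the rule for naming called genes in full, and add no support to their calls. ORC6 read -0.40 and did not pass (limma adjusted p = 0.100). ORC2, ORC3 and ORC4, which form the core with ORC5, had differences of 0.18, -0.11 and 0.11. The 95% interval of ORC1 ran from -1.08 to -0.51 and that of ORC2 from -0.05 to 0.42, so the intervals of these subunits did not meet; differences between subunits were not tested here or in the complexes that follow. A second ORC5 probe set read -0.66 and its dim one, with all 4 arrays under 5, read -0.08.

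Licensing factors all read lower. CDC6, which helps to load the helicase, fell from 10.99 and 10.98 to 10.37 and 10.47 (-0.57 ± 0.100 SE, limma adjusted p = 0.0432). CDT1, its partner in loading, fell from 11.00 and 10.91 to 10.16 and 10.40 (-0.68 ± 0.121 SE, limma adjusted p = 0.0442). Their groups did not overlap, and the other probe sets of CDC6 and CDT1 read -0.63 and -0.75. GMNN, the geminin gene, whose product blocks CDT1 from licensing again, read -0.50 ± 0.127 and did not pass (limma adjusted p = 0.104). The inhibitor and its target thus had differences of the same sign.

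The MCM2-7 genes, which encode the subunits of the replicative helicase, read lower for all 6 subunits, with both TGF-β1 arrays below both untreated arrays in each. MCM2 fell from 12.61 and 12.57 to 11.67 and 11.95, a log2 difference of -0.79 ± 0.125 (SE, n = 2 per group, limma adjusted p = 0.0336). MCM3 was next at -0.57 ± 0.112 and missed the threshold (limma adjusted p = 0.0554). MCM6, MCM7, MCM5 and MCM4 lay at -0.46, -0.43, -0.40 and -0.37 (limma adjusted p from 0.0878 to 0.115). The 95% intervals of all 6 subunits overlapped, and MCM2, at -1.09 to -0.48, reached those of MCM4 (-0.61 to -0.14) and MCM5 (-0.65 to -0.14). The other probe sets of MCM5, MCM6 and MCM7 read -0.28, -0.69 and -0.46. MCM4 had 4 others, of which 3 read -0.38 to -0.47 and the dimmest 0.014.

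MCM10, which helps to start the helicase and is not a subunit of it, had the second lowest difference of the 44 genes. It fell from 10.88 and 10.95 to 9.98 and 10.16, a log2 difference of -0.84 ± 0.111 (SE, n = 2 per group, limma adjusted p = 0.0198). Its groups lay further apart than its replicates, and both other MCM10 probe sets read lower still, at -0.91 and -1.11. All 3 MCM10 probe sets passed when p-values were adjusted over every probe set (limma adjusted p from 0.0223 to 0.0367). MCM8, a helicase used in recombination repair, read -0.41 at a limma adjusted p of 0.132. Its dimmer probe set read -0.032.

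Origin firing genes read lower without passing. CDC7, the kinase that triggers the loaded helicase, read 9.66 and 9.83 in the untreated and 9.08 and 9.22 in the TGF-β1 arrays (-0.60 ± 0.116 SE, limma adjusted p = 0.0537). DBF4, its activating subunit, read -0.40 (limma adjusted p = 0.128). In both genes the TGF-β1 arrays lay below the untreated ones.

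CDC45 and the GINS genes, whose products complete the active helicase, read lower in all 5 cases. GINS3 fell from 9.80 and 9.82 to 8.91 and 9.19 (-0.76 ± 0.124 SE, limma adjusted p = 0.0352). GINS2 fell from 11.37 and 11.31 to 10.62 and 10.81 (-0.62 ± 0.110 SE, limma adjusted p = 0.0433). The second GINS3 probe set was close at -0.73, while those of GINS2 read -0.18 and -0.44 at lower levels. GINS4, GINS1 and CDC45 had differences of -0.45, -0.40 and -0.37 and did not pass. CDC45 varied more between replicates, at 9.84 and 9.45 untreated and 9.37 and 9.18 treated.

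Primase and polymerase genes were uneven within their complexes. PRIM1, the catalytic primase subunit that makes the RNA primers, had the lowest difference of the set and fell from 10.97 and 10.88 to 10.17 and 9.92 (-0.88 ± 0.121 SE, n = 2 per group, limma adjusted p = 0.0227). That is 1.84-fold lower, with a 95% interval of -1.17 to -0.58. PRIM2, its regulatory subunit, read 9.27 and 8.81 in the untreated and 8.82 and 8.90 in the TGF-β1 arrays, so that the groups overlapped (-0.18, 95% interval -0.58 to 0.22). POLA1 and POLA2, of polymerase alpha, read -0.27 and -0.36 and did not pass.

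POLE2, an accessory subunit of the leading strand polymerase epsilon, fell from 10.99 and 10.66 to 10.13 and 10.03 (-0.74 ± 0.136 SE, limma adjusted p = 0.0470). POLE, its catalytic subunit, read -0.15 with a 95% interval of -0.41 to 0.11, while the interval of POLE2 ran from -1.08 to -0.41, ending about where that of POLE began. For polymerase delta, which copies the lagging strand, POLD3 missed the threshold at -0.64 ± 0.121 (limma adjusted p = 0.0507), and its dimmer second probe set read -0.013. POLD1, the catalytic subunit, read -0.32 and POLD2 -0.20, at limma adjusted p-values of 0.192 and 0.407.

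**Figure D3:**
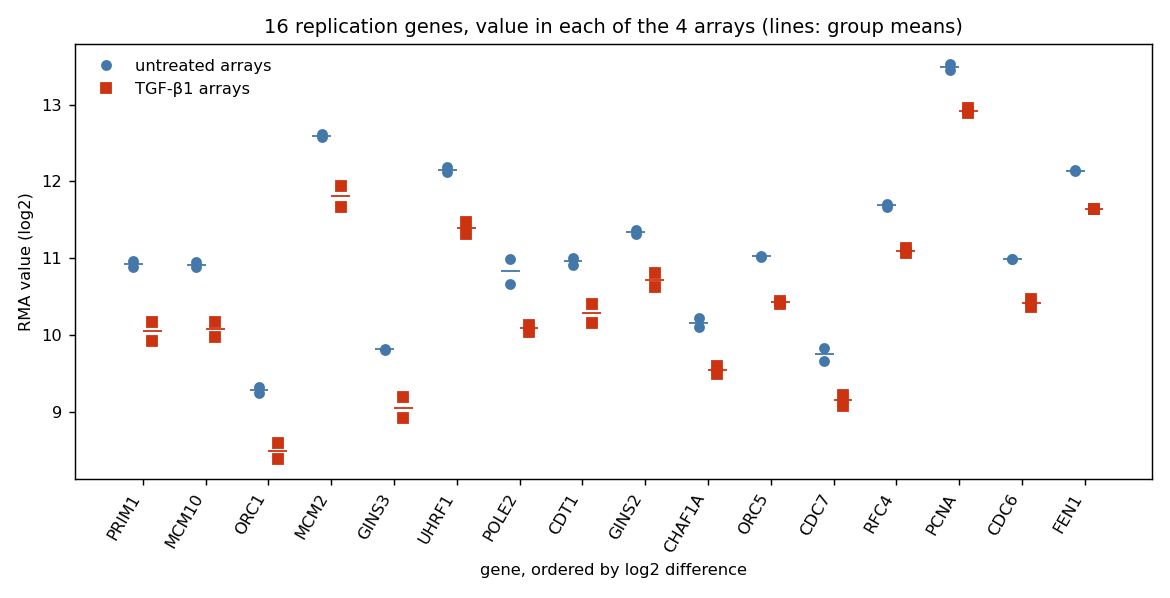
RMA value (vertical axis, log2) in each of the 4 arrays for the 14 genes that fell and for CDC7 and FEN1, the lowest of role groups with no call, ordered by log2 difference, with short lines at group means. In all 16 genes both TGF-β1 arrays (red squares) lie below both untreated arrays (blue circles). For the 14 this was part of the rule that chose them, and CDC7 and FEN1 were chosen by their difference.

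The sliding clamp and part of its loader fell. PCNA, the ring that holds polymerases on DNA, went from 13.53 and 13.45 to 12.89 and 12.96 (-0.57 ± 0.100 SE, limma adjusted p = 0.0429). RFC4, a small subunit of the clamp loader, went from 11.67 and 11.70 to 11.07 and 11.13 (-0.59 ± 0.098 SE, limma adjusted p = 0.0376). Neither gene's groups overlapped. The other small subunits RFC3, RFC2 and RFC5 read -0.47, -0.37 and -0.29 and did not pass (limma adjusted p from 0.0662 to 0.261). RFC1, the large subunit that is particular to the replicative loader, read 10.05 and 10.13 in the untreated and 9.85 and 10.08 in the TGF-β1 arrays, and these overlapped. Its 95% interval was -0.41 to 0.17, which overlaps the -0.83 to -0.35 of RFC4.

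Genes of Okazaki fragment maturation, the joining of lagging strand pieces, did not pass. FEN1, the flap nuclease, read 12.13 and 12.15 in the untreated and 11.64 and 11.63 in the TGF-β1 arrays (-0.505 ± 0.096 SE, limma adjusted p = 0.0506), with a gap between groups many times that between replicates. LIG1, the ligase that seals the pieces, read -0.24 (limma adjusted p = 0.305).

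Chromatin factors that follow the fork included a pair that fell. UHRF1, which brings the maintenance DNA methyltransferase to newly made DNA, fell from 12.19 and 12.12 to 11.31 and 11.47 (-0.76 ± 0.107 SE, n = 2 per group, limma adjusted p = 0.0247). CHAF1A, the large subunit of the histone chaperone CAF-1, fell from 10.10 and 10.22 to 9.49 and 9.60 (-0.62 ± 0.107 SE, limma adjusted p = 0.0412). The brighter of its other probe sets read -0.72 and -0.66. CHAF1B, the middle subunit of the same chaperone, read -0.17 with a 95% interval of -0.41 to 0.07.

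The sizes of the 14 falls could not be ranked with these arrays. Their 95% intervals all overlapped, the highest lower bound being -0.81 and the lowest upper bound -0.58. For roles with 3 or more genes, the median log2 difference was -0.57 for licensing factors, -0.62 for the chromatin factors, -0.44 for the MCM2-7 genes, -0.45 for CDC45 and GINS, -0.42 for the clamp and loader, -0.31 for polymerase alpha and primase, -0.32 for polymerases epsilon and delta and -0.25 for the origin recognition complex. By the probe set used, ORC2 and ORC4 of the last role were the only genes of the 44 with a difference above 0. The sign of ORC4 depended on the probe set, as its other one read -0.12 with both TGF-β1 arrays below both untreated arrays.

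Further probe sets of the same genes gave a check on the probe set used. Of 36 such probe sets in 22 genes, 32 had a difference below 0 and 27 had both TGF-β1 arrays below both untreated arrays. They read the same genes on the same arrays, so they are not independent of the values above, and no share over all probe sets was computed. The 26 whose mean log2 reached 7 had a median of -0.43, close to that of all 44 genes, though they cover only some of these. The 10 dimmer ones had a median of -0.17. RFC5 had the further probe set with the highest difference, 0.14, and its untreated arrays read 9.37 and 8.69.

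**Figure D4:**
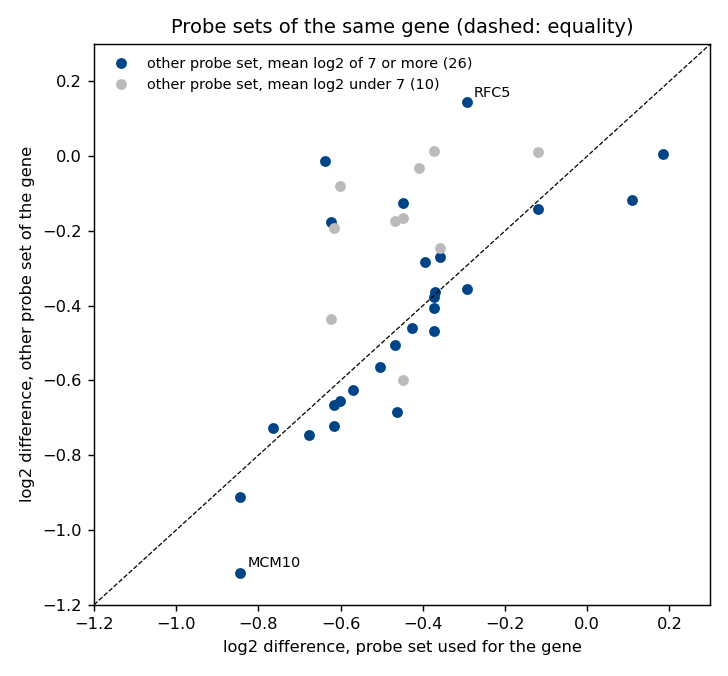
Log2 difference of each of the 36 further probe sets (vertical axis) against that of the probe set used for the same gene (horizontal axis), in blue for the 26 whose mean log2 reached 7 and in grey for the 10 dimmer ones, with a dashed line of equality. The blue points follow the line for most genes, with 24 of 26 below 0, and the grey ones lie mostly above it.

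A list of 42 other replication genes, from fork protection, single-strand binding and the control of licensing, was set beside the 44. Of the 40 that were measured 3 fell and 0 rose by limma, where 1.47% of all genes fell and 1.87% rose. With no adjustment 17 were lower and 2 higher at a limma p under 0.05, where 8.54% of all genes were lower and 8.18% higher. The median log2 difference of the 40 was -0.28, and 35 were below 0, as were 50.9% of all genes. DTL, which directs the ubiquitin ligase that destroys CDT1 in S phase, fell from 10.82 and 10.79 to 9.58 and 9.47 (-1.28 ± 0.101 SE, n = 2 per group, limma adjusted p = 0.00469). It was 2.43-fold lower, more than any of the 44 genes, and did not pass without untreated replicate 1 (limma adjusted p = 0.0562).

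TIPIN, a fork protection factor, fell from 9.90 and 9.86 to 9.21 and 8.98 (-0.78 ± 0.116 SE, limma adjusted p = 0.0280), while its partner TIMELESS read -0.30 and did not pass. DSCC1, part of an alternative clamp loader, fell from 10.49 and 10.43 to 9.87 and 9.82 (-0.61 ± 0.098 SE, limma adjusted p = 0.0338). Without any 1 of the 4 arrays neither TIPIN nor DSCC1 passed, at limma adjusted p-values of 0.0866 to 0.198, and the mean of the DSCC1 probe sets gave -0.17. DSCC1 also missed the threshold when every probe set was tested (limma adjusted p = 0.0579). Chosen after their values were seen, POLD4, the small subunit of polymerase delta, read higher at 0.74 ± 0.146 (limma adjusted p = 0.0558) and STN1, which protects telomere ends, at 0.46 ± 0.110 (limma adjusted p = 0.0900). TOP2A, a topoisomerase of dividing cells, also chosen after its values were seen, read -0.054 with overlapping groups.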

How the data were processed

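Total RNA of 4 cell samples, 2 untreated and 2 given TGF-β1, was read on HG-U133 Plus 2.0 arrays. The deposited values are log2 values made by the authors with RMA (background correction, quantile normalization, summarization per probe set), per the series' design text; the log2 scale is judged from their range of 2.48 to 15.34, and no source used here gives the RMA version. Quantile normalization gives all arrays a common distribution, so a shift shared by most genes would not show, and the values carry no detection call.

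Of 54675 probe sets, 41097 with 1 gene symbol in the platform annotation were kept and symbols updated through Entrez IDs (41043 matched). Each of 19775 genes was read by its probe set with the highest mean over 4 arrays. The test was that of limma 3.58.1, run in R 4.3.3 (lmFit, eBayes, two-sided, 6.13 degrees of freedom, no covariate or filter), with Benjamini-Hochberg adjustment over all 19775 genes and calls at adjusted p under 0.05. The fit was tested on simulated data. An exact permutation test of 2 arrays against 2 cannot go below p = 0.333 and was not run. Nothing in the labels says that replicates were separate cultures, so the p-values rest only on array-to-array spread, possibly technical, and precision is limited by having 4 arrays.

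The members and lists were chosen with earlier results of these data known. Genes named in full were the called members whose groups did not overlap, the member with the largest difference in a role group without one, and the called genes of the wider list. Groups that did not overlap were thus part of the choice of the called members and give no further support to their calls. Alternatives were filters at a mean log2 of 5 or 7, an intensity trend, 2 centrings, 3 other uses of probe sets, a replicate block, leaving out each array, and 2 other thresholds. Added after seeing the data were the comparison with genes of mean log2 of 7 or more and with promoter windows within the members' range of GC content.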

Additional observations from a re-analysis of the deposited data

How the results depend on the processing

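In place of 14 genes, 0 members fell with any 1 array left out, 34 at an unadjusted p under 0.05, 0 with a further 2-fold minimum, 4 when every probe set was tested and 4 with the replicate block. Those 4 were in both cases ORC1, MCM10, PRIM1 and UHRF1. The labels do not say whether the replicate numbers of the titles pair the arrays. Deviations of same-numbered arrays from their group means correlated at 0.364 over all genes. With only 2 such pairs, whether the arrays are paired was not settled. In all other settings 14 to 19 members fell. Of the 14, the mean of a gene's probe sets lost ORC5 and GINS2 and the housekeeping centring lost PCNA and POLE2 (6 of 8 listed genes measured). The median of the members was -0.40 with averaged probe sets, -0.41 with housekeeping centring and -0.42 to -0.48 with 1 array left out. The scalings moved the median of all genes to -0.026 and 0.024. In the wider list, in place of 3 lower and 0 higher, 5 fell and 1 rose over genes whose mean log2 reached 7, 1 rose with an intensity trend and 1 with housekeeping centring (POLD4 in these settings), 0 or 1 fell with 1 array left out, 17 were lower and 2 higher with unadjusted p-values, and 1 fell with the 2-fold minimum. With the replicate block, and likewise with every probe set tested, 2 of that list fell, and DSCC1 was lost (limma adjusted p = 0.0508 with the block). Signal over background could not be judged from RMA values.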

Other observations

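Some members differed between replicates of a group by as much as others did between groups. ORC3 read 9.81 and 9.39 in untreated replicates 1 and 2 and 9.82 and 9.17 in TGF-β1 replicates 1 and 2, the widest TGF-β1 gap of the 44 genes (0.643). The widest untreated gap was that of PRIM2 (0.459). Over the 44 genes, the sign of the replicate gap was the same in both groups for 22. Deviations of same-numbered arrays from their group means correlated at 0.298 over these 44 genes.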
